A study of Bos taurus with 21 samples.

Results

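A set of 100 genes of foetal bovine muscle was formed because their transcripts stood highest in the middle of gestation. A gene was eligible when a RefSeq mRNA probe of it was well above background on all 21 arrays, and 9481 genes were. For each probe the lower of the 180 and 210 days postconception (dpc) means was set against the higher of the 110 and 260 dpc means. This excess, in log2 units, is called the mid-gestation score, and the 100 genes with the highest scores of their best probe were kept. The stage means chose the genes, so the stage pattern is a description and was not tested. A level here is the log2 intensity of a probe minus the 75th percentile of its array, so 0 is as bright as that percentile.

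The samples were muscle of 10 Blonde d'Aquitaine (BA) and 11 Charolais (CH) foetuses, each on 1 array. BA and CH are French beef breeds, and BA is the more heavily muscled. At 110 dpc there were 3 BA and 2 CH foetuses, at 180 dpc 2 and 3, at 210 dpc 3 and 3, and at 260 dpc 2 and 3. The foetuses were conceived by artificial insemination with semen of 2 sires per breed, and 8 were male. Part of the BA breed carries a *MSTN* mutation, and the labels do not give the genotype of any foetus. The labels name the muscle as Longissimus thoracis, whereas the methods of the study name *m. Semitendinosus*. Of the male foetuses, BA had 2 at 110 dpc and 1 at 210 dpc, and CH had 1 at 180 dpc, 2 at 210 dpc and 2 at 260 dpc.

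In foetal muscle, primary fibres are followed by secondary fibres, and the fibres then differentiate in contraction and metabolism before birth. Vessels, motor nerves and resident immune cells develop in the tissue too, and they bring endothelial, synaptic and immune transcripts with them. In bulk tissue, more cells of a type and more RNA per cell cannot be told apart. The 10 muscle fibre markers with a named probe were all well above background, with mean levels of 6.65 to 7.96 on single arrays, whereas *CIDEC* and *LEP* of the adipocyte list and *KLF1* of the erythroid list were not on all arrays.

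The mid-gestation score ran from 0.50 to 1.77, with a median of 0.63, which is 1.55-fold on a linear scale. Over all eligible genes the median score was -0.27, and 1399 (14.8%) had a score above 0. At the limit of the list *ELMO1*, a regulator of Rac signalling and phagocytosis, and *PDLIM2*, a PDZ and LIM domain protein, were the last genes inside at 0.50, and *MMP23* and *CCDC80* were the first outside at 0.49. Averaged over the 100 genes, single BA arrays stood between -1.49 and -1.28 at 110 dpc. They were between -0.32 and -0.30 at 180 dpc, between -0.40 and -0.33 at 210 dpc, and between -1.16 and -1.12 at 260 dpc. The CH arrays lay between -1.14 and -1.09, between -0.29 and -0.16, between -0.44 and -0.21 and between -1.36 and -1.15 at the same stages. All 9481 eligible genes together stayed between -0.30 and -0.17 on every array.

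**Figure D1:**
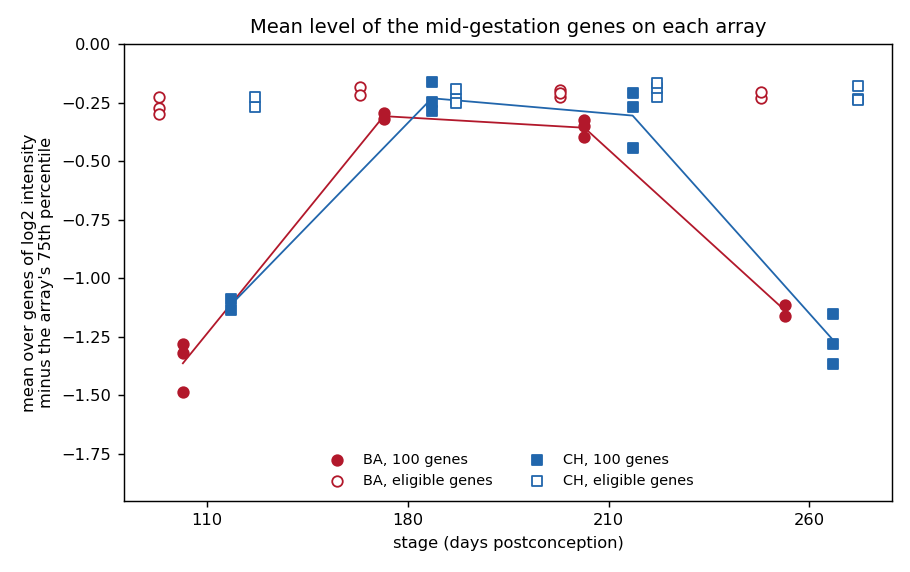
Mean level on each array (y axis, log2 intensity minus the array's 75th percentile) of the 100 mid-gestation genes (filled symbols) and of all 9481 eligible genes (open symbols) by stage (x axis, days postconception) in BA (circles) and CH (squares), with lines through the group means of the 100 genes. The 100 genes stand near -0.3 at 180 and 210 dpc and below -1 at 110 and 260 dpc, whereas the eligible genes stay between -0.30 and -0.17.

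The stage with the highest mean was 180 dpc for 60 genes and 210 dpc for 40. In 64 genes the means of 180 and 210 dpc lay within 0.2 of each other. The flanks differed more between genes. In 13 genes the 260 dpc mean exceeded the 110 dpc mean by more than 0.5, and in 11 it was lower by more than 0.5. On 33 of the 100 genes every array of 180 and 210 dpc (11 arrays) was above every array of 110 and 260 dpc (10 arrays), against 44 (0.464%) of the eligible genes. The same stage contrast chose the genes, so nothing is read from that count.

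*CD86*, a co-stimulatory surface molecule of antigen-presenting cells, had the second highest score. The BA arrays read -0.55, -0.70 and 0.52 at 110 dpc, 1.62 and 1.66 at 180 dpc, 1.31, 1.32 and 1.45 at 210 dpc and -0.76 and -0.91 at 260 dpc. The CH arrays read 0.84 and 0.02 at 110 dpc, 1.71, 1.70 and 1.58 at 180 dpc, 2.05, 2.28 and 1.28 at 210 dpc and -1.07, -1.59 and -0.89 at 260 dpc. No array of 180 or 210 dpc overlapped with one of 110 or 260 dpc, and the stage means over both breeds were 0.03 ± 0.66, 1.66 ± 0.06, 1.61 ± 0.43 and -1.04 ± 0.32 (SD, n = 5, 5, 6 and 5).

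*ARHGAP20*, which encodes a GTPase-activating protein, followed with a score of 1.38. In BA its level was -3.07, -3.69 and -3.41 at 110 dpc, -1.82 and -1.93 at 180 dpc, -1.52, -1.61 and -1.54 at 210 dpc and -3.40 and -3.42 at 260 dpc, and in CH -2.99 and -3.33 at 110 dpc, -1.91, -1.94 and -1.97 at 180 dpc, -1.97, -1.82 and -2.28 at 210 dpc and -3.23, -3.30 and -3.42 at 260 dpc. The middle stages lay above both outer stages in each breed without overlap. *PPM1K*, the mitochondrial phosphatase that activates branched-chain amino acid breakdown, had stage means of 0.11 ± 0.21, 1.61 ± 0.16, 1.64 ± 0.19 and 0.38 ± 0.30. Its 3 other probes on the array had scores of 1.12 to 1.19, close to the 1.23 of the probe that was chosen. *NOS2*, the inducible nitric oxide synthase, was dim, with stage means of -3.85 ± 0.55, -2.13 ± 0.14, -2.33 ± 0.35 and -3.48 ± 0.98. A second and brighter *NOS2* probe showed 0.29, 1.72, 1.53 and 0.91 at the 4 stages.

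*NDUFA4L2*, a mitochondrial protein known for its induction by low oxygen, stood at -0.86 ± 0.27, 1.17 ± 0.78, 0.69 ± 0.50 and -0.33 ± 0.14. *TSHR*, the thyrotropin receptor, had stage means of -0.98 ± 0.42, 0.18 ± 0.31, -0.10 ± 0.32 and -1.37 ± 0.15. *RGS16*, a regulator of G protein signalling, had 0.45 ± 0.50, 1.96 ± 0.20, 1.62 ± 0.16 and 0.74 ± 0.28. The middle and outer arrays of *NDUFA4L2* and *RGS16* did not overlap, whereas 1 of the CH arrays of *TSHR* at 110 dpc (-0.33) was above the lowest array at 210 dpc (-0.53).

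**Figure D2:**
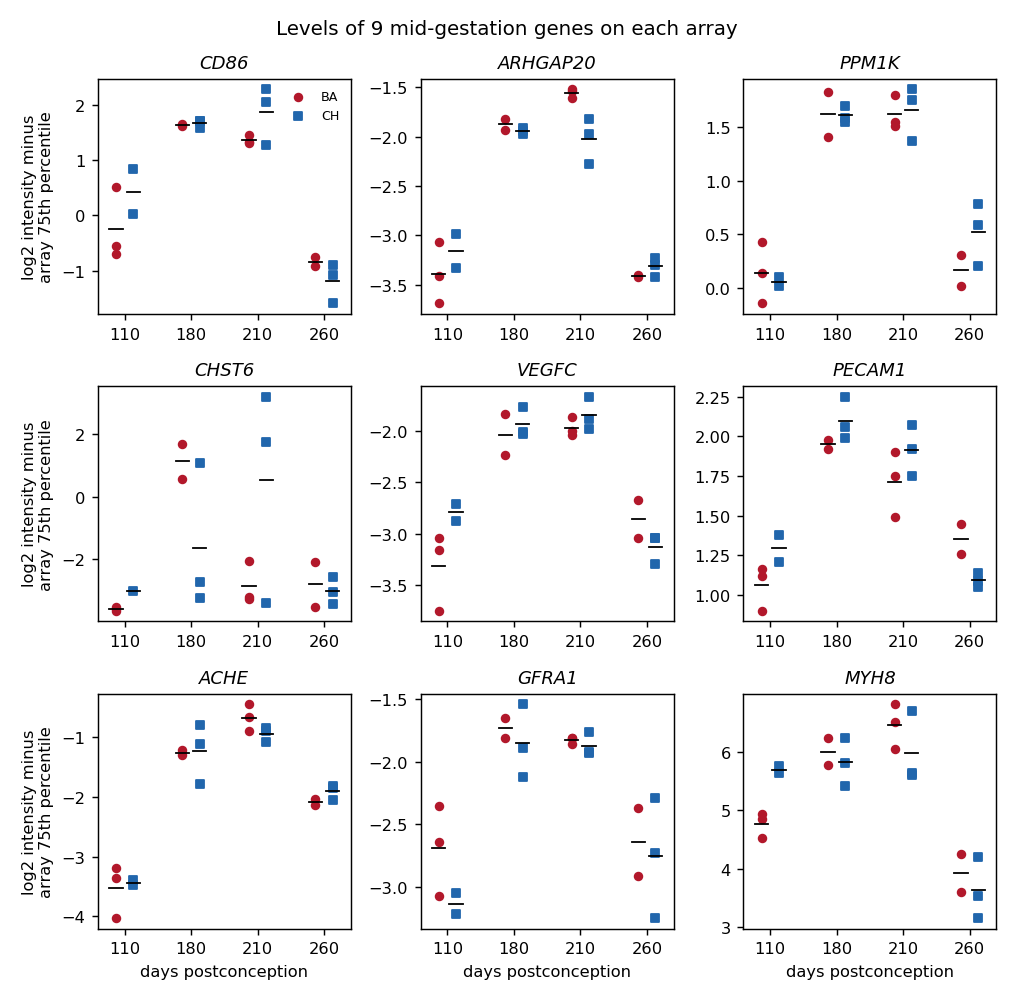
Level of 9 mid-gestation genes on each array (y axis, log2 intensity minus the array's 75th percentile) by stage (x axis, days postconception) in BA (circles) and CH (squares), with group means as black bars. In all panels but *CHST6* and *MYH8* every array of 180 and 210 dpc is above every array of 110 and 260 dpc, and *CHST6* is above 0 on 5 arrays alone.

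The highest score of all, 1.77 for *CHST6*, rested on few foetuses. *CHST6* encodes a sulfotransferase of keratan sulfate chains. It was above 0 on 5 of 20 arrays, 3 of 180 dpc and 2 of 210 dpc, and between -3.63 and -2.04 on the other arrays. In BA its level was -3.50, -3.58 and -3.63 at 110 dpc, 0.56 and 1.69 at 180 dpc, -3.21, -2.04 and -3.25 at 210 dpc and -3.50 and -2.09 at 260 dpc. In CH it was -3.00 at 110 dpc, -2.71, -3.22 and 1.06 at 180 dpc, -3.38, 1.75 and 3.18 at 210 dpc and -2.57, -3.43 and -3.03 at 260 dpc, with the second foetus of 110 dpc missing because the authors' software flagged that spot as not uniform. The flagged spot was bright, at 4.66, and with it kept the score was 0.65 and the gene ranked 45. *KLK9*, a secreted serine protease, was singled out after its values were seen because it is the 1 gene whose score was above 0 in neither breed alone. Its level was between 3.05 and 3.84 on 6 arrays and at most 0.38 on the other 15. Those 6 were the 5 arrays with *CHST6* above 0 and the second CH foetus of 110 dpc, where the *CHST6* spot was flagged. They came from 2 BA and 4 CH foetuses, 3 of them male, of 3 sires and on 6 slides. At 180 and at 210 dpc each gene was high in some foetuses and low in others, and none of the 6 arrays was of 260 dpc. *POLRMT*, which encodes the mitochondrial RNA polymerase, was also highest on these 6 arrays, at -2.78 to -1.92, against at most -3.22 on the other 15. A second *POLRMT* probe had a score of -0.08. Neither *CHST6* nor *KLK9* had another probe that was well above background on all arrays. The standard deviation within groups was 1.77 for *KLK9* and 1.70 for *CHST6*, against a median of 0.31 over the 100 genes.

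Roles were assigned to the 100 genes after they were known, from general knowledge. Vessel wall and vessel growth accounted for 11 genes, immune cells and inflammation for 14, nerve, synapse and excitability for 14 and matrix and its sugar chains for 8. Regulation of small GTPases and G proteins accounted for 9, metabolic and secreted enzymes for 11, growth factor and hormone signalling for 5 and muscle fibre and muscle regulation for 3. The other 25 had another role or none assigned.

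**Figure D3:**
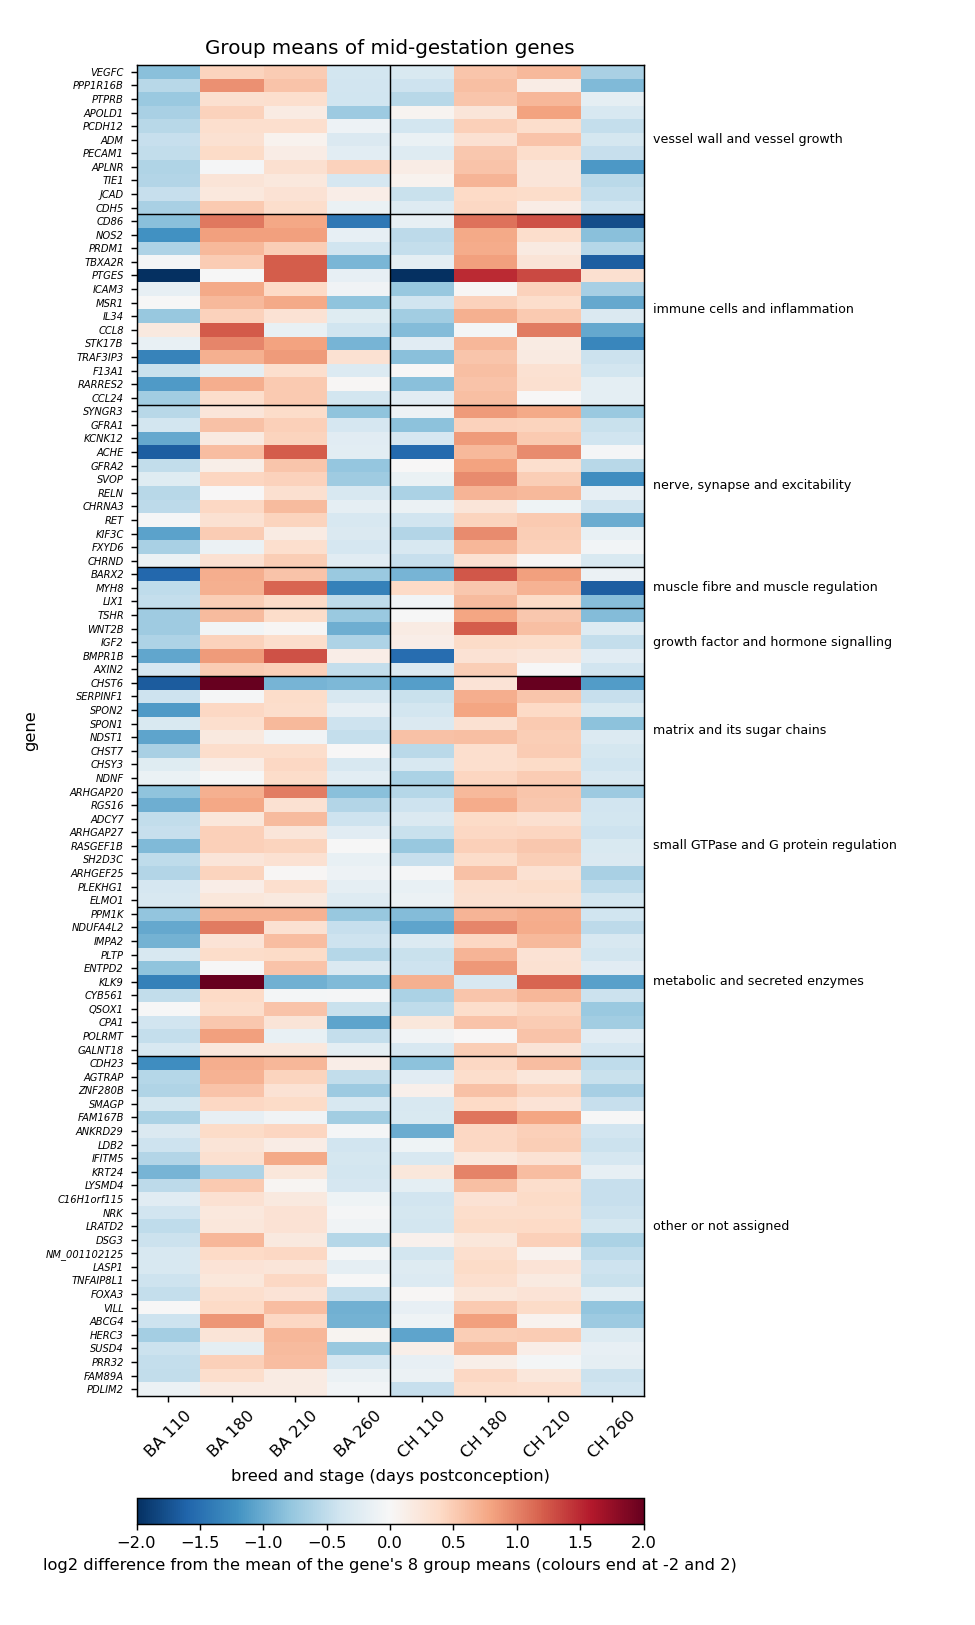
Mean of mid-gestation genes in each breed and stage (columns), as the log2 difference from the mean of its 8 group means (colour, red above and blue below), in rows grouped by role and ordered by score. Most rows are red at 180 and 210 dpc in both breeds, and the *CHST6* row is blue in BA at 210 dpc.

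The vessel group held *VEGFC*, *PPP1R16B*, *PTPRB*, *APOLD1*, *PCDH12*, *ADM*, *PECAM1*, *APLNR*, *TIE1*, *JCAD* and *CDH5*. *VEGFC*, a growth factor of lymphatic and blood vessels, had the highest score among them, 1.04. Levels in BA were -3.16, -3.04 and -3.75 at 110 dpc, -2.24 and -1.84 at 180 dpc, -2.04, -2.0 and -1.87 at 210 dpc and -2.67 and -3.04 at 260 dpc. Levels in CH were -2.71 and -2.88 at 110 dpc, -2.01, -1.77 and -2.03 at 180 dpc, -1.98, -1.89 and -1.67 at 210 dpc and -3.04, -3.30 and -3.04 at 260 dpc. The middle and outer arrays did not overlap, and a second, brighter probe had a score of 0.91. *PECAM1*, an adhesion molecule between endothelial cells, had stage means of 1.16 ± 0.17, 2.04 ± 0.13, 1.81 ± 0.20 and 1.20 ± 0.16. The endothelial receptor *TIE1* had -1.57 ± 0.52, -0.73 ± 0.42, -1.01 ± 0.37 and -1.70 ± 0.43, with arrays that overlapped between the stages.

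The vessel genes were set beside a wider endothelial list, whose figures include those of its genes that are among the 100. Of 32 eligible genes on a list of endothelial and angiogenic genes, 5 were among the 100 (*VEGFC*, *PECAM1*, *APLNR*, *TIE1* and *CDH5*), 24 (75%) had a score above 0 and the median score was 0.25. Of the defining endothelial markers, all 7 were well above background, and *PECAM1* and *CDH5* of these were among the 100. Their mean level on single arrays was 1.03 to 1.40 at 110 dpc and 0.95 to 1.53 at 260 dpc, against 1.82 to 2.00 at 180 dpc and 1.62 to 2.01 at 210 dpc. The 5 marker genes outside the 100 were all higher at 180 and 210 dpc than at 110 and 260 dpc. *CLDN5*, a tight junction protein of endothelium, had stage means of 3.85, 4.65, 4.41 and 4.08, and *KDR*, the main receptor for vessel growth factors, had 1.42, 1.90, 1.71 and 0.79. The part of endothelial cell number in these values was not tested.

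In the immune group were *CD86*, *NOS2*, *PRDM1*, *TBXA2R*, *PTGES*, *ICAM3*, *MSR1*, *IL34*, *CCL8*, *STK17B*, *TRAF3IP3*, *F13A1*, *RARRES2* and *CCL24*. *IL34*, a ligand of the macrophage growth factor receptor, had stage means of -1.44 ± 0.47, -0.10 ± 0.27, -0.30 ± 0.16 and -0.98 ± 0.27. *CCL24*, a chemokine, had -2.17 ± 0.61, -1.16 ± 0.43, -1.39 ± 0.59 and -1.92 ± 0.29. *PTGES*, which makes prostaglandin E2, had stage means of -3.55 ± 0.75, -0.56 ± 0.86, -0.18 ± 0.49 and -1.32 ± 0.55. The middle arrays of *IL34* were all above the outer ones, and those of *CCL24* were not. *IL34* and *CCL24* were the members on the complement and innate list, where 8 of 26 eligible genes (30.8%) had a score above 0. On the leukocyte list none of 22 eligible genes was among the 100, 3 (13.6%) had a score above 0 and the median score was -0.25, against 14.8% and -0.27 for all eligible genes. The mean over 7 leukocyte markers was -0.54, -0.30, -0.46 and -0.71 at the 4 stages. Single arrays overlapped, with -0.87 to 0.17 at 110 dpc and -0.52 to 0.06 at 180 dpc. The markers did not share 1 course. *CD79A* (0.95, 1.63, 1.16 and 0.01) and *CD14* were higher at both middle stages than at both outer ones. *CSF1R* and *AIF1* fell from stage to stage, *CD68* and *CD74* rose, and *PTPRC* was lowest at 180 dpc. The part of immune cell number in these values was not tested.

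Among the 14 genes of the nerve group were *SYNGR3*, *GFRA1*, *KCNK12*, *ACHE*, *GFRA2*, *SVOP*, *RELN*, *CHRNA3*, *RET*, *KIF3C*, *FXYD6* and *CHRND*, with a median score of 0.65. *RET* is the receptor for ligands of the GDNF family, and *GFRA1* and *GFRA2* encode its co-receptors. *GFRA1* was at -2.87 ± 0.36, -1.80 ± 0.22, -1.85 ± 0.07 and -2.71 ± 0.39, *GFRA2* at 0.58 ± 0.35, 1.39 ± 0.39, 1.31 ± 0.44 and 0.22 ± 0.34 and *RET* at -2.73 ± 0.24, -2.19 ± 0.47, -2.09 ± 0.23 and -3.30 ± 0.60. A second and brighter *GFRA1* probe gave the same score of 0.86. *SYNGR3*, a synaptic vesicle protein, was at -3.24 ± 0.28, -2.26 ± 0.39, -2.31 ± 0.27 and -3.63 ± 0.30.

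*ACHE* and *CHRND* were the 2 genes of the group that belong to the junction of nerve and muscle. *ACHE* encodes acetylcholinesterase, which ends transmission there. The BA foetuses had -4.03, -3.19 and -3.36 at 110 dpc, -1.22 and -1.30 at 180 dpc, -0.45, -0.67 and -0.90 at 210 dpc and -2.04 and -2.14 at 260 dpc. The CH foetuses had -3.40 and -3.48 at 110 dpc, -1.78, -0.79 and -1.12 at 180 dpc, -1.08, -0.85 and -0.89 at 210 dpc and -1.82, -1.85 and -2.05 at 260 dpc. The 260 dpc arrays lay between those of the middle stages and those of 110 dpc, without overlap. *CHRND*, the delta subunit of the muscle acetylcholine receptor, was bright, at 3.52 ± 0.29, 4.09 ± 0.27, 4.04 ± 0.33 and 3.51 ± 0.20. Of 11 eligible genes on the acetylcholine receptor and junction list, these were the only ones with a score above 0, and the list median was -0.73. Of the Schwann cell and nerve list, 1 of 14 eligible genes had a score above 0. The neuron markers *NEFL*, *NEFM*, *STMN2* and *SYT1* were not well above background on all arrays. *SNAP25*, the only marker of that list that was, fell from stage to stage. Its mean level was -1.78 at 110 dpc and -3.01 at 260 dpc, so it was not highest in mid-gestation.

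Genes of the fibre itself were few. *MYH8*, the perinatal myosin heavy chain, had a mean level of 5.29 on the chosen probe. Levels in BA stood at 4.52, 4.94 and 4.86 at 110 dpc, 5.77 and 6.23 at 180 dpc, 6.81, 6.50 and 6.05 at 210 dpc and 3.61 and 4.25 at 260 dpc. Levels in CH stood at 5.75 and 5.63 at 110 dpc, 5.42, 6.23 and 5.81 at 180 dpc, 5.60, 6.69 and 5.63 at 210 dpc and 4.20, 3.54 and 3.16 at 260 dpc. In BA both middle stages were above both outer stages, whereas in CH the 110 dpc arrays lay within the range of the middle stages and the 260 dpc arrays below. Its other 2 probes had scores of 0.45 and 0.62. *BARX2*, a homeobox factor of muscle precursors, was at -1.78 ± 0.40, 0.57 ± 0.39, 0.22 ± 0.39 and -0.83 ± 0.44. It had the highest score, 1.06, of the 3 genes of muscle fibre and muscle regulation. Of the contractile and sarcomere list, *MYH8* was the only one of 37 eligible genes with a score above 0. Of 38 eligible cell cycle genes 1 had a score above 0, and of 53 genes of oxidative phosphorylation and the citrate cycle 0 did.

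The signalling group was *TSHR*, *WNT2B*, *IGF2*, *BMPR1B* and *AXIN2*. *AXIN2*, an inhibitor and target of the Wnt pathway, had stage means of -2.38 ± 0.23, -1.57 ± 0.23, -1.84 ± 0.38 and -2.48 ± 0.20, and of 18 eligible Wnt genes 9 had a score above 0. *BMPR1B*, a receptor for bone morphogenetic proteins, had -2.27 ± 0.62, -0.52 ± 0.34, -0.27 ± 0.65 and -1.12 ± 0.45. *IGF2* is the main growth factor of foetal muscle, and its probes disagreed. The probe that was chosen had stage means of 4.22 ± 0.41, 4.95 ± 0.18, 4.89 ± 0.31 and 4.00 ± 0.14, and 5 further probes, with mean levels of 4.81 to 7.11, had scores of 0.44 to 0.64. The other 5 probes, with mean levels of 7.36 to 8.13, had scores of -0.43 to -0.20 and were highest at 260 dpc. The mid-gestation pattern of *IGF2* therefore held for 6 of its 11 probes.

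In the matrix group were *CHST6*, *SERPINF1*, *SPON2*, *SPON1*, *NDST1*, *CHST7*, *CHSY3* and *NDNF*. *SERPINF1*, a secreted factor known to restrain vessel growth, had stage means of 2.25 ± 0.67, 3.1 ± 0.52, 3.13 ± 0.37 and 2.27 ± 0.34. It was the 1 gene of 21 on the list of matrix proteases and inhibitors that was among the 100. No collagen (14 eligible) and none of 50 matrix glycoproteins and proteoglycans was. The 100 genes are few among the 9481 eligible genes, so nothing is read from a list without a member. A score above 0 was found for 6 of the 14 collagens (42.9%) and 8 of the 21 proteases and inhibitors (38.1%). It was found for 9 of the 50 glycoproteins and proteoglycans, against 14.8% of all eligible genes. Median scores were -0.32, -0.13 and -0.32 for these lists, against -0.27.

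The regulators of small GTPases and G proteins were *ARHGAP20*, *RGS16*, *ADCY7*, *ARHGAP27*, *RASGEF1B*, *SH2D3C*, *ARHGEF25*, *PLEKHG1* and *ELMO1*, with a median score of 0.65. The metabolic and secreted enzymes were *PPM1K*, *NDUFA4L2*, *IMPA2*, *PLTP*, *ENTPD2*, *KLK9*, *CYB561*, *QSOX1*, *CPA1*, *POLRMT* and *GALNT18*, and 8 of the 11 stood highest at 180 dpc.

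Other probes were set beside the single probe behind each gene. They were read on the same arrays that chose the genes, so they bear on the choice of probe alone. For 55 of the 100 genes at least 1 other probe was well above background on all arrays. Of 86 such probes 73 had a score above 0, and their median score was 0.37. All other probes of 47 of the 55 genes had one. The genes with a probe that did not were *PLTP*, *ARHGAP27*, *IGF2*, *IFITM5*, *NDST1*, *JCAD*, *VILL* and *POLRMT*.

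The pattern was then described in each breed alone. The arrays of both breeds chose the genes, so scores above 0 in each breed largely follow from the rule. The score was above 0 in BA for 94 genes, in CH for 98 and in both for 93, with medians of 0.48 in BA and 0.60 in CH. The exceptions were *CHST6*, *CCL8*, *KRT24*, *APLNR* and *CYB561* in BA, *NDST1* in CH and *KLK9* in both. Within single slides, 100 and 94 of the 100 genes were higher at 180 than at 110 dpc in BA. In CH 95 of 100 and 95 of 99 were. At 210 dpc 93 and 96 were higher than at 110 dpc in BA. At 260 dpc 3 were higher than at 210 dpc in BA, and 7 and 3 in CH. In CH 2 were higher at 260 than at 180 dpc. The eligible genes had medians between -0.045 and 0.043 in these comparisons. The same arrays chose the genes, so nothing is read from these counts.

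The stage at which each gene stood highest was then counted in each breed, without a test. In CH the highest stage was 180 dpc for 63 genes and 210 dpc for 37. In BA it was 180 dpc for 49, 210 dpc for 50 and 260 dpc for 1. The same stage was highest in both breeds for 48 genes, 180 dpc in CH with 210 dpc in BA for 32, and the reverse for 19. From 110 to 180 dpc the median difference was 0.92 in BA and 0.82 in CH, from 180 to 210 dpc 0.00 in BA and -0.11 in CH, and from 210 to 260 dpc -0.71 in BA and -0.84 in CH. Over all eligible genes these medians lay between -0.02 and 0.03.

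The breed difference in the change from 180 to 210 dpc was tested for each gene. It passed for none of the 100 in limma at an adjusted p under 0.05, as for 0% of the eligible genes, and 12 had an unadjusted p under 0.05, against 3.91% of the eligible genes. The difference was positive, that is toward 210 dpc in BA, for 65 of the 100 genes and for 46.6% of the eligible genes, with a median of 0.11. With the authors' table, which is not scaled between arrays, the median was -0.09. The lowest p belonged to *KRT24*, with a difference of 1.22 (SE 0.31, limma adjusted p = 0.779). The breed difference in the mid-gestation excess, which sets both middle stages against both outer ones, passed for none in limma, as for 0% of the eligible genes, and 8 had an unadjusted p under 0.05, against 5.62%. It was positive for 44 of the 100 and for 55.3% of the eligible genes. *ANKRD29* had the lowest p, with -0.58 (SE 0.17, limma adjusted p = 0.818).

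The counts of genes higher in BA went opposite ways at the outer stages. At 110 dpc 75 of the 100 genes were lower in BA than in CH, with a median difference of -0.22, whereas 43.3% of the eligible genes were higher in BA and their median was -0.04. At 260 dpc 66 of the 100 were higher in BA, with a median of 0.13, against 47.5% of the eligible genes and a median of -0.01. At 180 and 210 dpc the medians were -0.09 and -0.04. Genes of the list share arrays, so these counts are a description and carry no test. The stage means that chose the genes were taken over arrays, with more BA arrays at 110 dpc and more CH arrays at 180 and 260 dpc. The part of this weighting in the counts was not tested. With the breeds weighted equally, 88 of the 100 genes were chosen again, and the counts were not repeated for that list. The median kept its sign at 110 and at 260 dpc in each alternative processing tried and with each array left out. Sex was not balanced at these stages, and among female foetuses alone the medians were -0.30 at 110 dpc and 0.24 at 260 dpc. That comparison held 1 BA foetus at 110 dpc and 1 CH foetus at 260 dpc. Averaged over the 100 genes, these were the lowest arrays of their groups, at -1.49 and -1.36. Within slides, the median was -0.30 at 110 dpc on 1 slide, and at 260 dpc it was 0.29 on 1 slide and -0.01 on another. The slides with -0.30 and 0.29 held those same foetuses, so they are not a check separate from the females.

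**Figure D4:**
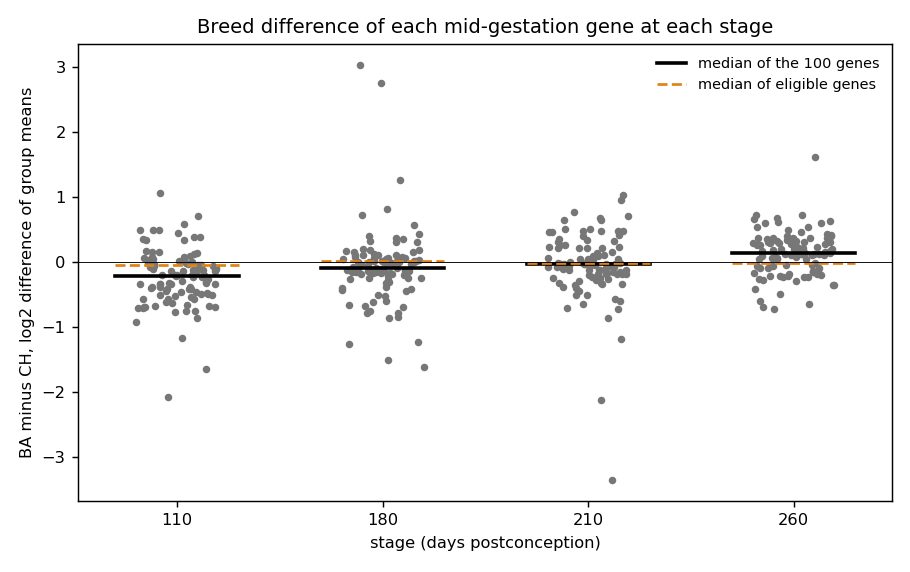
Difference between the BA and CH group means (y axis, log2, BA minus CH) of each of the 100 genes (points, spread sideways for view) at each stage (x axis, days postconception), with the median of the 100 genes (black bar) and of all eligible genes (dashed bar). The median of the 100 genes lies at -0.22 at 110 dpc and at 0.13 at 260 dpc, and the points overlap 0 at every stage.

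All 11 vessel genes were lower in BA at 110 dpc, with a median difference of -0.33, and 9 were higher in BA at 260 dpc, with a median of 0.27. *VEGFC* differed by -0.52 (SE 0.19, limma adjusted p = 0.26) at 110 dpc and by 0.27 (SE 0.19, limma adjusted p = 1.0) at 260 dpc. The levels of *VEGFC* at 110 dpc, given above, did not overlap between the breeds, but the test was not passed. All 9 regulators of small GTPases and G proteins were likewise lower in BA at 110 dpc, with a median of -0.19, and 6 were higher at 260 dpc. Of the immune genes 12 of 14 were higher in BA at 260 dpc, with a median of 0.29. Of the 11 metabolic and secreted enzymes 6 were higher in BA at 110 dpc and 5 at 260 dpc. Of the 14 nerve genes 4 were higher in BA at 110 dpc and 8 at 260 dpc. Over the whole list 75 of the 100 genes were lower in BA at 110 dpc and 66 were higher at 260 dpc. Of the eligible genes 43.3% were higher in BA at 110 dpc and 47.5% at 260 dpc. The roles were assigned after the genes were known, so the counts by group are a description.

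For *MYH8* the breeds did not overlap at 110 dpc, and the difference was -0.91 (SE 0.35, limma adjusted p = 0.281). *IGF2* differed there by -0.75 (SE 0.20, limma adjusted p = 0.141) on the chosen probe. Its 5 other probes with the mid-gestation pattern differed by -0.77 to -0.57 at 110 dpc, and the 5 brighter probes by at most 0.22 in size.

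The difference between the breeds in the change from 110 to 260 dpc was tested after these values were seen. It was positive for 79 of the 100 genes, against 54.4% of the eligible genes, with a median of 0.31. None of the 100 passed in limma, against 0.0105% of the eligible genes, and 17 had an unadjusted p under 0.05, against 6.64%. A comparison list was made with the same rule turned over, of the 100 genes lowest in mid-gestation. Of those, 37 had a positive difference, and the median was -0.17. Both lists were chosen by stage means over arrays, with more BA arrays at 110 dpc and more CH arrays at 260 dpc. The part of this weighting in the contrast between the lists was not tested.

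For the breed difference at a single stage, limma called none of the 100 genes at 110 dpc (0.169% of the eligible genes), *KRT24* at 180 dpc (0.0316%), none at 210 dpc (0.0105%) and none at 260 dpc (0%). At an unadjusted p under 0.05 there were 20, 9, 20 and 14 genes, against 12%, 6%, 5.32% and 5.17% of the eligible genes. Of those at 110 dpc 17 were lower in BA, and of those at 260 dpc 12 were higher. At 210 dpc 12 were higher and 8 lower. *TBXA2R*, the receptor for thromboxane, had the lowest p at 210 dpc. Its level there was -0.33, -0.31 and 0.13 at 210 dpc in BA and -1.53, -0.76 and -1.09 at 210 dpc in CH, and the difference was 0.95 (SE 0.22, limma adjusted p = 0.344).

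Averaged over the 4 stages, 3 of the 100 genes differed between the breeds in limma, against 0.243% of the eligible genes. All 3 were lower in BA, as were 0.169% of the eligible genes. They were *KRT24*, *FAM167B* and *WNT2B*. In sum, 19 of the 100 had an unadjusted p under 0.05, against 11.3% of the eligible genes, and 45 were higher in BA, against 46.2%.

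*KRT24*, a keratin of epithelia, had the lowest p. In BA its level was -2.76, -2.74 and -2.63 at 110 dpc, -2.90 and -1.90 at 180 dpc, -1.60, -1.62 and -1.44 at 210 dpc and -2.27 and -2.03 at 260 dpc. In CH it was -1.56 and -1.54 at 110 dpc, -0.83, -0.92 and -0.63 at 180 dpc, -1.48, -1.23 and -0.79 at 210 dpc and -2.13, -1.70 and -1.99 at 260 dpc. BA and CH did not overlap at 110 and 180 dpc and overlapped at 210 and 260 dpc. The average difference was -0.84 (SE 0.11, limma adjusted p = 0.00229). At 180 dpc it was -1.61 (SE 0.23, limma adjusted p = 0.0261), and at 110 dpc -1.16 (SE 0.23, limma adjusted p = 0.0513). Within slides it was -1.19 at 110 dpc, -0.98 at 180 dpc, -0.37 and -0.14 at 210 dpc, and -0.28 and 0.10 at 260 dpc. With slide as a block the average difference was -0.76 (limma adjusted p = 0.0672) and that at 180 dpc -1.42 (limma adjusted p = 0.452). Among female foetuses alone the values were -0.75 (limma adjusted p = 0.136) and -1.53 (limma adjusted p = 0.231). The call at 180 dpc was further lost with the authors' table (limma adjusted p = 0.0699) and with normexp (limma adjusted p = 0.0506). At 180 dpc the call was lost without the first BA foetus of that stage, which held the lowest value, with -1.11 (limma adjusted p = 0.184). It was also lost without any of the 3 CH foetuses of 180 dpc, the first BA and the second CH foetus of 210 dpc and the third CH foetus of 260 dpc, with -1.67 to -1.53 (limma adjusted p from 0.0516 to 0.131).

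The mean over 2 skin and epithelium markers that were well above background spanned 0.12 to 1.67 on single arrays of 110 dpc, 0.32 to 1.18 of 180 dpc, -0.30 to 1.13 of 210 dpc and -0.54 to 0.39 of 260 dpc. *KRT5*, *KRT18*, *EPCAM* and *CDH1* of that list were not well above background on all arrays. The part of epithelial cells in the *KRT24* difference was not tested.

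*FAM167B* was at -2.77, -2.70 and -3.15 at 110 dpc, -2.62 and -2.18 at 180 dpc, -2.05, -2.58 and -2.29 at 210 dpc and -2.63 and -3.25 at 260 dpc in BA. In CH it was at -2.46 and -2.63 at 110 dpc, -0.78, -1.37 and -1.36 at 180 dpc, -1.58, -1.70 and -1.06 at 210 dpc and -2.71, -1.86 and -2.19 at 260 dpc. The breeds overlapped at 260 dpc alone. The average difference was -0.78 (SE 0.14, limma adjusted p = 0.0222), and within slides it was negative in each of 6 comparisons, from -1.0 to -0.23. The call was lost without the first BA foetus of 180 dpc, the second BA foetus of 260 dpc or the first CH foetus of 110 dpc (limma adjusted p from 0.0626 to 0.0691). With slide as a block it was -0.63 (limma adjusted p = 0.225), among female foetuses alone -0.74 (limma adjusted p = 0.157) and with no filter -0.78 (limma adjusted p = 0.0638).

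*WNT2B*, a secreted ligand of the Wnt pathway, was at -1.42, -2.13 and -1.30 at 110 dpc, -0.84 and -1.09 at 180 dpc, -0.98, -0.99 and -0.69 at 210 dpc and -1.44 and -2.32 at 260 dpc in BA. In CH it was at -1.03 and -0.47 at 110 dpc, 0.55, -0.33 and 0.67 at 180 dpc, -0.62, -0.38 and 0.10 at 210 dpc and -1.69, -0.99 and -0.81 at 260 dpc. The breeds again overlapped at 260 dpc alone. The average difference was -0.86 (SE 0.17, limma adjusted p = 0.0485), just within the threshold, and the call was lost with any of 15 of the 21 arrays left out. It was also lost with sex as a covariate, at -0.81 (limma adjusted p = 0.0617), among female foetuses alone, at -0.97 (limma adjusted p = 0.137), with the authors' table, at -0.80 (limma adjusted p = 0.19), and with no filter (limma adjusted p = 0.12). Within slides it was negative in each of 6 comparisons, from -1.10 to -0.37. With slide as a block it was -0.83 (limma adjusted p = 0.12).

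**Figure D5:**
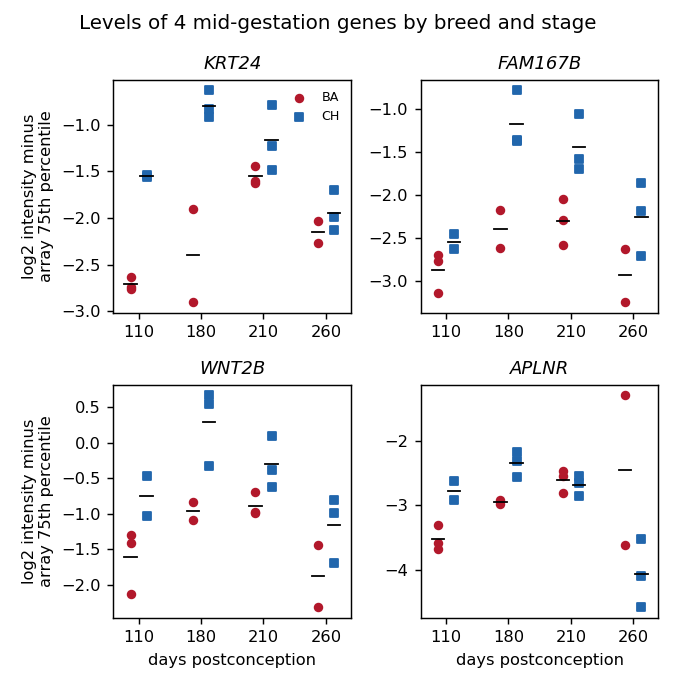
Level of *KRT24*, *FAM167B*, *WNT2B* and *APLNR* on each array (y axis, log2 intensity minus the array's 75th percentile) by stage (x axis, days postconception) in BA (circles) and CH (squares), with group means as black bars. BA is below CH without overlap at 110 and 180 dpc in all 4 genes, and 1 BA array of *APLNR* at 260 dpc stands alone at -1.30.

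On the other side, no gene was higher in BA on average at an adjusted p under 0.05. The lowest p belonged to *ICAM3*, an adhesion molecule of leukocytes, with 0.46 (SE 0.13, limma adjusted p = 0.155), which passed without the first BA foetus of 110 dpc at 0.53 (limma adjusted p = 0.0473), to *BMPR1B* with 0.62 (SE 0.18, limma adjusted p = 0.161) and to *TBXA2R* with 0.38 (SE 0.12, limma adjusted p = 0.197). The 2 other probes of *BMPR1B* that were well above background had average differences of 0.03 and -0.15.

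*APLNR*, the receptor for apelin on endothelial cells, had the lowest p at 260 dpc. In BA its level was -3.59, -3.30 and -3.68 at 110 dpc, -2.92 and -2.98 at 180 dpc, -2.47, -2.81 and -2.55 at 210 dpc and -3.62 and -1.30 at 260 dpc. In CH it was -2.63 and -2.92 at 110 dpc, -2.31, -2.18 and -2.56 at 180 dpc, -2.55, -2.85 and -2.65 at 210 dpc and -3.53, -4.10 and -4.58 at 260 dpc. BA was below CH without overlap at 110 and 180 dpc, and at 260 dpc 1 of the 2 BA arrays was above all others. The difference at 260 dpc was 1.61 (SE 0.43, limma adjusted p = 0.418), and without the first BA foetus of that stage 2.77 (limma adjusted p = 9.01e-04), on 1 remaining BA array that is assumed to vary as the other groups do. A second *APLNR* probe, brighter with a mean level of 3.31, gave 3.00 and 2.72 at 260 dpc in BA and 2.80, 2.31 and 2.05 at 260 dpc in CH, a difference of 0.48. The high value of the second BA foetus was thus on 1 probe and not on the other.

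Sex was compared with breed and stage in the model. None of the 100 genes passed in limma, against 0.0211% of the eligible genes. At an unadjusted p under 0.05 there were 10, against 8.83% of the eligible genes, and 69 of the 100 were higher in males, against 52.3%. *CHSY3*, which builds chondroitin sulfate chains, had the lowest p, with a difference of 0.66 (SE 0.21, limma adjusted p = 0.393). The median difference was 0.08.

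After the group means were removed, the median correlation between pairs of the 100 genes over the 21 arrays was 0.02, and between pairs of the 11 vessel genes 0.13. These correlations share arrays and their scaling and are given as a description.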

How the data were processed

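Total RNA of each foetal muscle was hybridised to a 1-colour Agilent bovine array of 45220 spots, and the labels place each foetus in 1 of 8 groups of breed and stage. The authors extracted the spot intensity with Agilent Feature Extraction 10.7 (version from the submitters' processing notes), with background and multiplicative detrending and no background subtraction per the methods. Their deposited value table holds log2 processed intensity with no scaling between arrays: 649571 of 649670 values lay at most 0.01 from the log2 scanner value, and columns of unmapped samples were 0.

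From the scanner intensity, spots of a probe were averaged, 258 outlier spots were left out, and log2 levels were expressed relative to their array's 75th percentile. Of 43653 probes, 26325 were well above background on all 21 arrays (29027 to 34507 per array) and entered the tests, and 18574 of those had a RefSeq mRNA accession. Precision is limited by the number of arrays. Symbols came from the RefSeq gene table of ARS-UCD2.0, which matched 99 of the 100 genes. No sequences or promoters were used here, so a planned promoter motif search was not run.

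Breed differences were tested with limma 3.58.1 (R 4.3.3, Python 3.11.15) on 8 group means with 13 residual degrees of freedom, and sex in a model with breed and stage, all two-sided with Benjamini-Hochberg adjustment over all probes tested and a threshold of 0.05. The fit was tested on simulated data: of 200 probes shifted by 2 log2 units, 200 were recovered in the average breed difference and 172 in the breed difference of the change from 180 to 210 dpc. Smaller shifts were not simulated, so the recovery of differences of the size mostly seen here was not measured. Genes are named in the text by the 12 highest scores, by lowest p in each comparison, by membership of function lists (at most 4 a list) and at the limit of 100. Others were named to give a group's membership or after their values were seen, and a few genes are not reported here by name, in text or heat map. The 100 genes, the lists and the roles were chosen with earlier results of these data known. Alternatives were other scalings, background correction, filters, covariates, blocks and each array left out.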

Additional observations from a re-analysis of the deposited data

How the results depend on the processing

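The 100 genes depended on the filter and the scaling: of the 100, 45 were chosen again with no filter on dim probes, 63 with the authors' unscaled table, 57 from BA arrays alone and 63 from CH arrays alone, and 86 to 95 with 1 array left out. In the average breed difference, 3 of the 100 genes passed in limma at an adjusted p under 0.05, 1 with no filter, 0 among female foetuses alone, 0 with slide as a block and 1 to 4 with 1 array left out (1 without the first BA foetus of 180 dpc, the second BA foetus of 260 dpc or the first CH foetus of 110 dpc). At 110 dpc 1 passed with quantile normalization and 1 with the filter on group means, which kept 70 of the 100, and 0 to 1 with 1 array left out. At 180 dpc 0 passed with the authors' table, 0 with normexp, 0 among females and 0 with slide as a block, and 0 to 1 with 1 array left out. At 260 dpc, and in the change from 110 to 260 dpc, 0 to 1 passed with 1 array left out, the 1 being *APLNR* without the first BA foetus of 260 dpc. The cause was not tested. The median over the 100 genes turned to 0.0209 for the average difference, to 0.0527 at 180 dpc and to -0.0901 for the change from 180 to 210 dpc with the authors' table, and to 0.0679 at 210 dpc among females. For the mid-gestation excess it was -0.0866 to 0.0085 with 1 array left out, above 0 without the first BA foetus of 260 dpc. The medians were examined after seeing the data, as were the change from 110 to 260 dpc, the values within slides and the flagged *CHST6* spot. Over the alternatives without an array left out they lay between -0.30 and -0.13 at 110 dpc, and between 0.10 and 0.24 at 260 dpc. The replicate numbers do not pair the foetuses: deviations from the group means correlated with a median of -0.002 over 66 pairs of the same number (-0.24 to 0.46) and -0.005 over 126 other pairs. With the replicate block 3 genes passed in the average difference, 1 at 180 dpc and 0 at 110 dpc, and the medians were -0.19 at 110 dpc and 0.11 at 260 dpc. With 2 or 3 foetuses a group, single-stage differences rest on few animals, and 14 of the 100 genes were dimmer than the typical array median of -2.69.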
